A study of Mus musculus with 16 samples.

Results

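Sestd1, Gulp1, Nrep, Podxl2 and Xrra1 are 5 genes whose RNA became less abundant as mouse rod photoreceptors aged. They were picked by symbol, as genes whose level fell with age in these same libraries. Their gene levels and fold changes are therefore given as a description, without a test. They are 5 of the 45038 genes to which the deposited transcript counts were summed, and 30 of the table's 113468 transcripts belong to them. The questions were what shape the decline took over the 4 ages and which transcripts of each gene carried it.

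Rods, which sense dim light in the retina, were sorted by flow cytometry from C57BL/6J mice carrying the Nrlp-GFP reporter, in which the promoter of the rod transcription factor gene Nrl drives green fluorescent protein. Their total RNA was sequenced in 16 libraries, with 4 libraries each at 3, 12, 18 and 24 months of age (3M, 12M, 18M and 24M). All groups share the strain and the reporter, and the mice differed by age alone as far as the labels say. The sort rests on a transgene, and the sources used here do not say if 1 or several mice made up a replicate, so p-values measure the spread between these libraries.

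The genes have unlike roles. Gulp1 encodes an adaptor with a phosphotyrosine-binding domain, the mammalian relative of CED-6 in Caenorhabditis elegans, which links engulfment receptors to the uptake of dying cells. Sestd1 encodes a protein with a SEC14-like lipid-binding domain and spectrin repeats that has been found with TRPC channels and with the planar polarity proteins Dact1 and Vangl2. Nrep encodes P311, a small intracellular protein studied in nerve regeneration and in TGF-beta signalling. Podxl2 encodes endoglycan, a sialomucin of the CD34 family on the cell surface. Xrra1 was named from a response of human cells to X-rays, and its molecular role is poorly known.

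In libraries of 20579144 to 28791777 estimated counts, 12177 genes passed a minimum of 5 CPM (counts after TMM scaling of each library to the same total) in at least 4 libraries, all 5 genes among them. All 10 rod markers on the list used passed too, and their summed level was 34200 ± 2610 CPM at 24M and 40000 ± 1390 CPM at 3M (SD, n = 4). Summed markers of other cells stood at 159 ± 19.7 CPM at 24M and 156 ± 29.2 CPM at 3M for cones, at 401 ± 27.0 and 403 ± 26.0 CPM for bipolar cells, at 151 ± 18.5 and 160 ± 12.7 CPM for amacrine cells, and at 252 ± 57.0 and 186 ± 59.9 CPM for Müller glia, in the same order of ages. Horizontal, ganglion, astrocyte, microglial, vascular and pigment epithelial lists each summed to between 1.34 and 66.5 CPM in every library, and no marker of any list was at 0 in all libraries. At 24M, Prkca (194 CPM) and Otx2 (149 CPM) made up most of the bipolar sum. Thrb (91.2 CPM) led the cone sum, Slc6a9 (85.1 CPM) the amacrine sum and Glul (113 CPM) the Müller sum. These sums thus follow a few genes and do not measure the amount of other cells. In bulk RNA, fewer cells of a type and less RNA per cell cannot be told apart. The part of other cells in the values below was not tested.

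At 4 start sites of these genes the sequence is shown because the transcripts beginning there fell in level, and at 1 further Podxl2 start site because its transcript overlapped in level between 24M and 3M. A further Podxl2 window with 2 GC boxes and 50 CpG, which overlaps the upstream one, is not printed, although its transcripts were also lower, at 0.241 ± 0.234 CPM at 24M and 2.17 ± 0.436 CPM at 3M. The windows are RefSeq promoters of build GRCm38.p6 of 300 bases that run from upstream of a start to just past it, written 5′ to 3′ on the strand of the gene, with GC boxes (GGGCGG or its reverse complement CCGCCC) in capitals.
Sestd1, chr2:77280543-77280842, minus strand: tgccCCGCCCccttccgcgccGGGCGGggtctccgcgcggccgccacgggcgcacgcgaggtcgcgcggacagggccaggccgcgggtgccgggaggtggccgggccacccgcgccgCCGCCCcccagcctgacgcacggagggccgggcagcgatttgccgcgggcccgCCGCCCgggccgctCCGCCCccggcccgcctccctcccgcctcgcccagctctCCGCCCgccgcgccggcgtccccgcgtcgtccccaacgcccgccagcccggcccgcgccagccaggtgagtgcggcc
Gulp1, chr1:44551421-44551720, plus strand: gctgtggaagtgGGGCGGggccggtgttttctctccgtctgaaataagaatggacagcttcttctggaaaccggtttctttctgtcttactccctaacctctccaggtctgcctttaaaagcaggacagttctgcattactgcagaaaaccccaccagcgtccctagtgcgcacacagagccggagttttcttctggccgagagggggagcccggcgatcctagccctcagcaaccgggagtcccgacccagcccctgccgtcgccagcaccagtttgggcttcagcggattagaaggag
Podxl2, upstream start, chr6:88874997-88875296, minus strand: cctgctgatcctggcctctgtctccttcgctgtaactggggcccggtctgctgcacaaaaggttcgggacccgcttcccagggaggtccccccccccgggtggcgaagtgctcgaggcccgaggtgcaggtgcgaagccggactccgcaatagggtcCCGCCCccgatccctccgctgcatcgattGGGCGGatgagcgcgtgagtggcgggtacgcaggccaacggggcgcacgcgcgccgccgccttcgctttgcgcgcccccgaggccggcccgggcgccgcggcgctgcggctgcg
Podxl2, downstream start, chr6:88874016-88874315, minus strand: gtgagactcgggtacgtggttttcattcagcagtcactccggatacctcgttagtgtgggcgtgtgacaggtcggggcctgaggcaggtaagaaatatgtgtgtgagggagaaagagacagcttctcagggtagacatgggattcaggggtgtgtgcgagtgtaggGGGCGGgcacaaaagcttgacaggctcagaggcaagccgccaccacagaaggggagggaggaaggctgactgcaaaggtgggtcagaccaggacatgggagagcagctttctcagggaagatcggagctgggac
Xrra1, chr7:99858968-99859267, plus strand: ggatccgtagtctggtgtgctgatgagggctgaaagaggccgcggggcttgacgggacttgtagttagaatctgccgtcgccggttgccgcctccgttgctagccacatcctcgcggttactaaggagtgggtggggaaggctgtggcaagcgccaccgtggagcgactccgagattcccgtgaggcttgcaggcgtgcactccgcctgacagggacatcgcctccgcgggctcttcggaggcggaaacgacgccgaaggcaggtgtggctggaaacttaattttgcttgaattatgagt
The Sestd1 window holds 6 GC boxes and 54 CpG dinucleotides in 85.3% G and C. The Gulp1 window holds 1 GC box and 15 CpG. The upstream Podxl2 window holds 2 GC boxes and 39 CpG, and the downstream one holds 1 GC box and 10 CpG. The Xrra1 window holds no GC box and has 26 CpG. Across 32817 mouse promoters of the same length, 35.6% hold a GC box on either strand and the median is 7 CpG (quartiles 3 and 20). Gulp1 also has 1 match to TAATCC or its complement GGATTA, the core bound by the photoreceptor factors Crx and Otx2, which 7.06% of all promoters hold. None of these 5 windows holds CACGTG, TGACGTCA or TATAAA, which 7.15%, 1.79% and 13.6% of promoters hold on either strand. A match describes letters in a window and is not evidence of a bound site.

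Sestd1 (ENSMUSG00000042272, chromosome 2, 77180340 to 77280592, minus strand, GRCm38) fell by a like amount at each step. It was at 11.3, 10, 8.56 and 9.72 CPM in the 3M libraries and at 6.58, 6.05, 6.24 and 5.92 CPM at 12M. At 18M it was at 3.84, 3.42, 4.54 and 3.28 CPM, and at 24M at 2.78, 2.43, 1.59 and 3.12 CPM. Every library of each age lay below every library of the age before. The mean was 2.48 ± 0.657 CPM at 24M and 9.89 ± 1.12 CPM at 3M, a log2 difference of -1.99 (SE 0.17), with 25.1% of the 3M level left. The steps were -0.67 (SE 0.16) at 12M against 3M, -0.71 (SE 0.17) at 18M against 12M and -0.60 (SE 0.18) at 24M against 18M. The earliest step spans 9 months and the later ones 6 each, so the rates were -0.075, -0.119 and -0.1 log2 per month. The step at 24M against 18M was -0.33 over the 13 libraries of the authors' normalized table, a choice made after seeing the data, which leaves out 12M replicate 4, 18M replicate 3 and 24M replicate 3. In the authors' own gene CPM the 24M and 18M libraries overlapped, since 24M replicate 4 was at 3.36 CPM and 18M replicate 2 at 3.16 CPM.

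Gulp1 (ENSMUSG00000056870, chromosome 1, 44551511 to 44796838, plus strand) followed nearly the same course at a higher level. It was at 25.7, 22.0, 22.4 and 19.4 CPM at 3M, and at 14.0, 15.5, 13.0 and 13.2 CPM at 12M. At 18M it was at 8.03, 8.56, 9.54 and 8.74 CPM, and at 24M at 6.9, 6.36, 4.11 and 5.54 CPM. Again no library of one age reached the range of the age before it, in these CPM or in the authors' own. Its mean of 5.73 ± 1.22 CPM at 24M, against 22.4 ± 2.59 CPM at 3M, gave a log2 difference of -1.97 (SE 0.14), and 25.6% of the 3M level was left. Its steps were -0.69 (SE 0.13), -0.67 (SE 0.14) and -0.61 (SE 0.14) in the order of age.

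Nrep (ENSMUSG00000042834, chromosome 18, 33437019 to 33464029, minus strand) fell most in the step to 12M, which spans the most months, and less at each later step. The 3M libraries held 19.7, 16.4, 18.3 and 14.8 CPM, and the 12M libraries 7.02, 8.31, 9.6 and 11.4 CPM. The 18M libraries held 7.15, 6.83, 5.96 and 6.03 CPM, and the 24M libraries 4.84, 6.26, 5.39 and 5.2 CPM. The 12M libraries all lay below the 3M ones, whereas 18M overlapped 12M and 24M overlapped 18M. The log2 steps were -0.93 (SE 0.14), -0.48 (SE 0.15) and -0.26 (SE 0.15). Per month the rates were -0.103 (SE 0.016), -0.08 (SE 0.024) and -0.044 (SE 0.025) log2, and those up to 18M were alike within their SEs. Nrep averaged 5.42 ± 0.605 CPM at 24M and 17.3 ± 2.17 CPM at 3M, a log2 difference of -1.67 (SE 0.15).

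Podxl2 (ENSMUSG00000033152, chromosome 6, 88842558 to 88875044, minus strand) reached its low level by 12M in 3 of 4 libraries. It stood at 18.6, 13.8, 20.4 and 17.5 CPM at 3M, and at 5.81, 5.96, 6.35 and 13.4 CPM at 12M. The 18M libraries held 8.03, 7.87, 5.71 and 6.51 CPM, and the 24M libraries 4.2, 8.16, 8.18 and 6.78 CPM. The ages 12M, 18M and 24M overlapped, and 12M replicate 4 came close to the 3M range; in the authors' own gene CPM it was at 15.6 CPM, inside the 3M range of 14.3 to 17.9 CPM. The log2 difference at 24M against 3M was -1.37 (SE 0.26), with means of 6.83 ± 1.87 CPM at 24M and 17.6 ± 2.78 CPM at 3M. The steps were -1.16 (SE 0.26), -0.16 (SE 0.27) and -0.04 (SE 0.27). Without 12M replicate 4, an alternative chosen after seeing the data, the 12M step was -1.54 and the step at 18M against 12M was 0.22, so the mean no longer fell at that step. That library also departed from the other 12M libraries in its length slope, the change in log2 level per doubling of transcript length. Its slope was -0.0473, against 0.0272, 0.0378 and 0.0748 in the others. The 3M libraries had slopes of -0.0161, -0.0249, -0.0349 and -0.041, so in this measure 12M replicate 4 was nearer to 3M. The part of the slope in its Podxl2 level, or in the 12M step of any gene, was not tested.

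Xrra1 (ENSMUSG00000035211, chromosome 7, 99859116 to 99917822, plus strand) fell over the first 2 steps and then held within the spread of the libraries. Its levels were 9.28, 9.0, 7.99 and 8.4 CPM at 3M, and 4.08, 5.42, 4.91 and 5.97 CPM at 12M. They were 3.48, 2.82, 3.58 and 3.94 CPM at 18M, and 3.77, 3.3, 2.87 and 3.02 CPM at 24M. The first 3 ages did not overlap with one another, and 24M overlapped 18M. With means of 3.24 ± 0.395 CPM at 24M and 8.67 ± 0.581 CPM at 3M, the log2 difference was -1.42 (SE 0.14). Its steps were -0.77 (SE 0.14), -0.56 (SE 0.14) and -0.10 (SE 0.15).

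**Figure D1:**
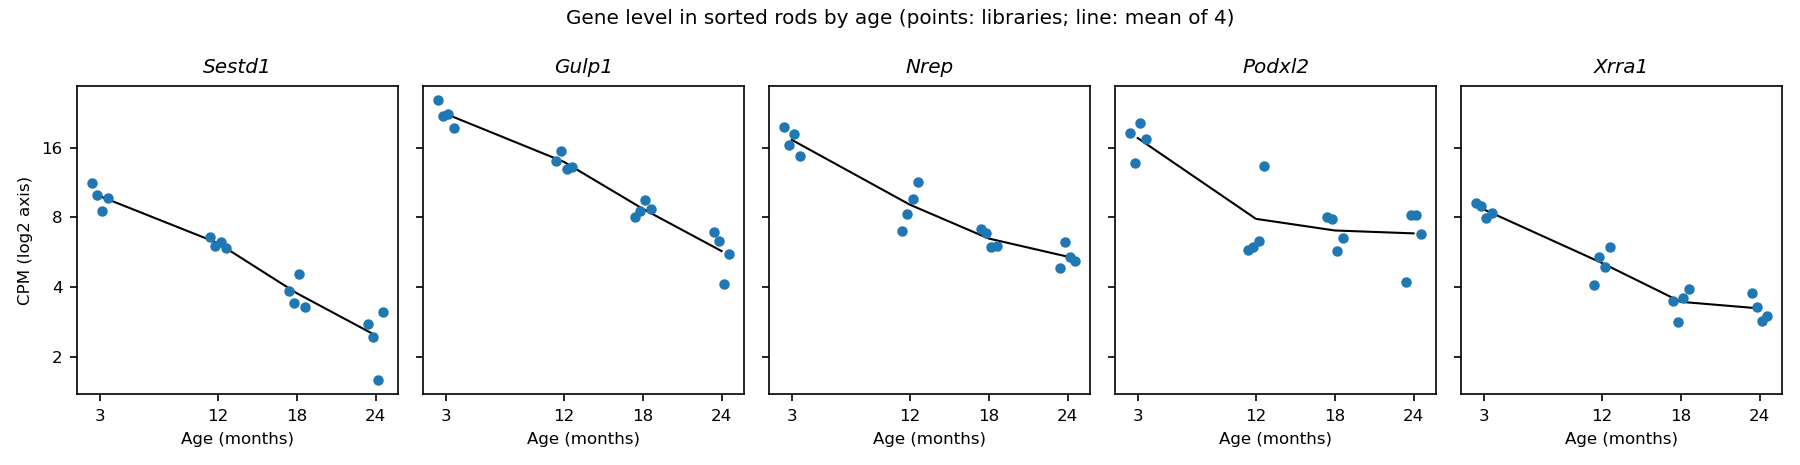
Level of the 5 genes in CPM (log2 axis) against age in months; each point is 1 library and the line joins the means of 4 libraries. Sestd1 and Gulp1 decline along a nearly straight line to means of 2.48 and 5.73 CPM at 24M, while Podxl2 is near its 24M level by 12M except in 1 library at 13.4 CPM.

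The word steady thus fitted the genes unequally. Of the log2 difference at 24M against 3M, Sestd1 had reached 33.9% at 12M and 69.8% at 18M, and Gulp1 34.9% and 69.1%. Nrep had reached 55.5% and 84.3%, Xrra1 54.2% and 93.3%, and Podxl2 85.2% and 96.8%. Without 12M replicate 4, the share reached at 12M was 32.9% for Sestd1, 33.7% for Gulp1, 63.0% for Nrep, 60.0% for Xrra1 and 113% for Podxl2. Among all genes called lower at 24M against 3M, 195 or 1.6% of those tested by edgeR's quasi-likelihood test at an adjusted p under 0.05, the median reached was 57.9% at 12M (quartiles 44.0% and 71.1%) and 77.9% at 18M (quartiles 56.8% and 95.7%). Sestd1 and Gulp1 thus lay below the lower quartile at 12M, and Podxl2 lay above the upper quartile at both ages. A straight line in months had slopes of -0.096 log2 per month for Sestd1 and -0.094 for Gulp1, a halving in 10.5 and 10.6 months. The slopes of Nrep, Xrra1 and Podxl2 were -0.082, -0.071 and -0.066 log2 per month. How well a line describes each course was not measured. Nrep, Xrra1 and Podxl2 had reached more of their difference by 12M and by 18M than Sestd1 and Gulp1.

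**Figure D2:**
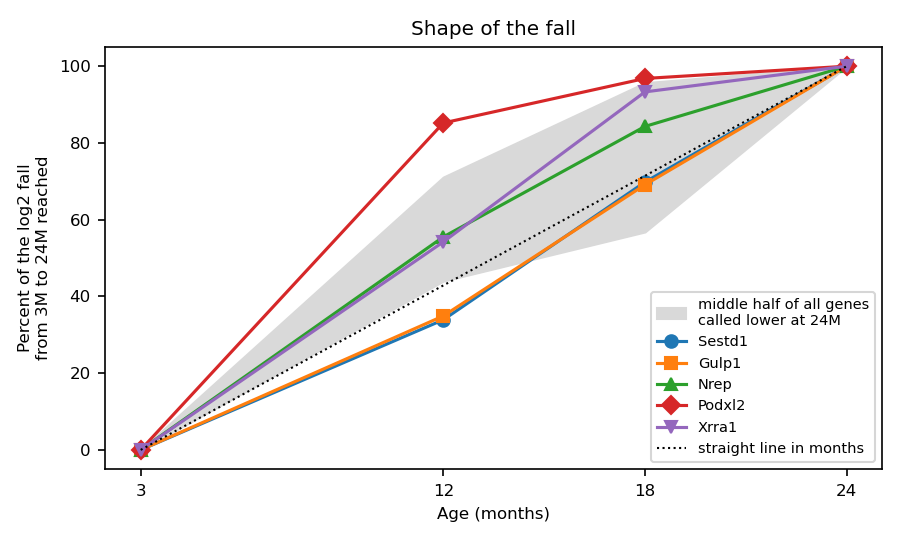
Percent of the log2 difference at 24M against 3M that was reached at each age in months. The band spans the quartiles of the 195 genes called lower at 24M and the dotted line is an even decline; Sestd1 (33.9% at 12M) and Gulp1 (34.9%) lie under the dotted line at 12M, and Podxl2 (85.2%) lies far above it.

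All 5 genes had a lower mean at each of the 3 steps, as did 815 of the genes tested, or 6.69%. Every 24M library lay below every 3M library for all 5, as it did for 648 genes or 5.32%. At 12M against 3M all 5 were separate, set against 2.67% of genes. At 18M against 12M, Sestd1, Gulp1 and Xrra1 were separate, set against 0.698% of genes, and at 24M against 18M only Sestd1 and Gulp1 of the 5 were, set against 1.68%. The decline chose these genes, so nothing is read from these counts. The authors' deposited table gave log2 differences of -2.12 for Sestd1, -1.89 for Gulp1, -1.67 for Nrep, -1.29 for Podxl2 and -1.53 for Xrra1 at 24M against 3M. For Podxl2 that table gave -1.32 at 12M, -1.12 at 18M and -1.29 at 24M, each against 3M.

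Which transcript carried each decline is a separate measure from the gene level. The share of a transcript in its gene was tested with edgeR's diffSpliceDGE at 24M against 3M across 33345 transcripts of 7594 genes. Of these, 74 or 0.222% passed an adjusted p of 0.05, 35 with a higher share and 39 with a lower one (0.105% and 0.117%). Of the 30 transcripts of the 5 genes, 19 held at least 5% of their gene's counts and 17 of those were tested. None of the 17 passed in edgeR, where the lowest adjusted p was 0.869 and 4 had an unadjusted p under 0.05. None passed in limma's diffSplice either, where the lowest adjusted p was 0.0621 for Gulp1-203. In level, 16 of the 19 had every 24M library below every 3M library, as did 3.16% of all transcripts tested; the choice of the genes fixes much of this count. The exceptions were Sestd1-203, Podxl2-201 and Xrra1-205. Transcripts were split by the authors' estimation, whose own uncertainty is not included in the SDs. The percent of a decline that a transcript carried is in CPM, which is not scaled for transcript length.

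Xrra1 comes first because one of its transcripts had the lowest p of the 17 in edgeR. Xrra1-202, a coding transcript of 1334 bases that starts inside the gene, was at 3.38, 4.17, 3.62 and 3.58 CPM at 3M and at 1.37, 1.05, 1.37 and 1.99 CPM at 12M. It was at 0.639, 0.247, 0.833 and 0.808 CPM at 18M and at 0.516, 0.486, 0.504 and 0.671 CPM at 24M. All of its 3M libraries lay above all later ones, and its later libraries rest on only 4.5 to 39.5 estimated counts each. Xrra1-202 carried 57.9% of the gene's decline in CPM and made up 17.1% ± 3.65 of the gene at 24M and 42.7% ± 4.54 at 3M. The share difference was -0.94 in natural log, with an unadjusted p of 0.00748 and an adjusted p of 0.869 in edgeR.

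Xrra1-205, annotated as a retained-intron transcript of 1809 bases, differed less between the ages. It was at 1.31, 1.17, 1.47 and 0.873 CPM at 24M and at 1.4, 1.26, 1.33 and 1.92 CPM at 3M, so that the groups overlapped and 81.5% of the mean was left. Between those ages it averaged 1.84 ± 0.689 CPM at 12M and 1.58 ± 0.52 CPM at 18M. Its share of the gene was 37.6% ± 9.9 at 24M and 17.3% ± 3.93 at 3M, with every 24M library above every 3M library, as for 3.3% of the transcripts tested. The share difference was 0.76 in natural log, with an unadjusted p of 0.0294 and an adjusted p of 1.0 in edgeR. Per kilobase of transcript, Xrra1-205 was at 0.666 CPM at 24M, against 0.408 CPM for Xrra1-202 at the same age, whereas at 3M they were at 0.817 and 2.76 CPM. The bases that set Xrra1-205 apart form 1 run of 289 bases (chr7:99906162-99906450, plus strand, GRCm38) that lies in no exon of the other Xrra1 transcripts. The first 120 of them (chr7:99906162-99906281) are shown because they belong to the transcript whose level overlapped between 24M and 3M:
Xrra1-205: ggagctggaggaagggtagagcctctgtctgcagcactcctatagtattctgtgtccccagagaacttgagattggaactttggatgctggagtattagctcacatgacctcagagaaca
Xrra1-201, the full-length coding transcript of 2731 bases and 19 exons that starts in the promoter window shown above, was at 1.26 ± 0.478 CPM at 24M and 2.73 ± 0.719 CPM at 3M. Its share of 38.0% ± 11 at 24M and 31.3% ± 6.26 at 3M overlapped between the ages. In 12M and 18M replicate 4, Xrra1-201 was highest of its age, at 2.64 and 2.19 CPM. In the same libraries Xrra1-205 was lowest of its age, at 1.19 and 0.808 CPM. Most bases of Xrra1-205 lie in exons of other Xrra1 transcripts, and how well the estimation told it apart from Xrra1-201 was not tested.

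**Figure D3:**
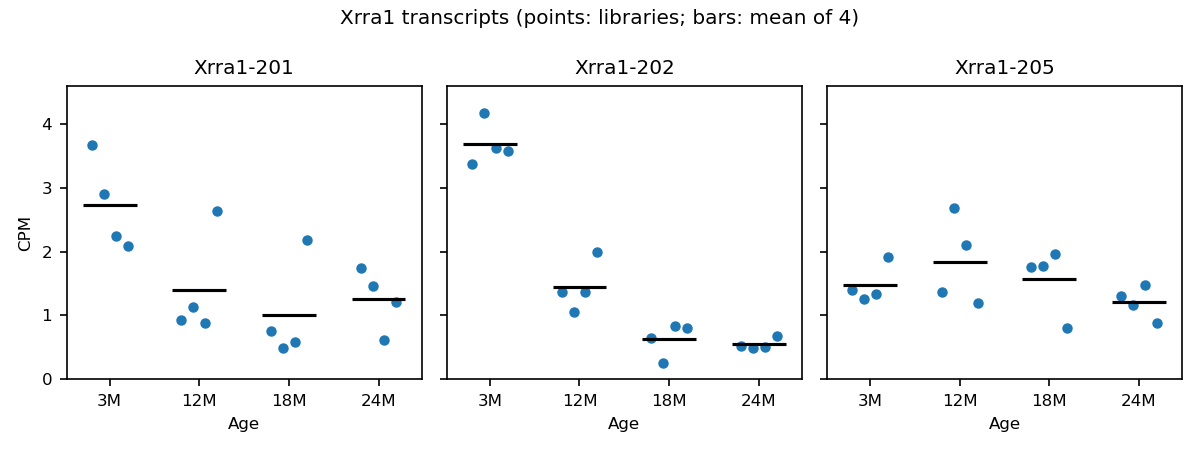
CPM of the 3 main Xrra1 transcripts by age; points are libraries and bars are means of 4. Xrra1-202 is below 1 CPM in every library at 18M and 24M, while the 24M libraries of Xrra1-205 overlap those at 3M.

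Xrra1 lies on the strand opposite to Spcs2, a signal peptidase subunit gene, and shares 4347 bases of genome with it. It also overlaps Gm38405 and A930030B08Rik on the opposite strand. Of the 1334 bases of Xrra1-202, 545 lie in exons of these overlapping genes, against 292 bases of Xrra1-201 and 0 of Xrra1-205. Spcs2 was at 27.2 ± 2.34 CPM at 24M and 35.3 ± 0.668 CPM at 3M, also lower without overlap between the ages, and Gm38405 was at 0.353 ± 0.111 CPM at 24M and 0.854 ± 0.15 CPM at 3M, without overlap too. The library kit keeps strand but the strand setting of the counting is unknown here, so the part of reads from these genes in the fall of Xrra1-202 was not tested.

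Both main transcripts of Sestd1 fell. They have identical coding exons of 2088 bases. They start at different sites and differ most in the stretch after the coding part, which is 6794 bases long in Sestd1-202 and 579 in Sestd1-201. Sestd1-202 was at 1.55, 1.17, 0.814 and 1.31 CPM at 24M and at 4.32, 3.68, 3.21 and 3.67 CPM at 3M. Sestd1-201, which starts in the promoter shown above, was at 1.19, 0.971, 0.659 and 1.48 CPM at 24M and at 5.86, 4.58, 2.73 and 5.5 CPM at 3M. Neither overlapped between the ages, and they carried 33.9% and 48.5% of the gene's decline. The share of Sestd1-202 was 49.1% ± 5.92 at 24M and 37.6% ± 0.559 at 3M, separate between the ages but with an unadjusted p of 0.569 and an adjusted p of 1.0 in edgeR. Per kilobase, Sestd1-202 was at 0.134 CPM at 24M and 0.414 CPM at 3M, and Sestd1-201 at 0.395 and 1.72 CPM. Sestd1-201 has only 3 bases of its own, so its level rests on reads that other Sestd1 transcripts could also give.

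Gulp1 was split among 4 transcripts, all lower at 24M than at 3M without overlap. Gulp1-203, a coding transcript that starts in the promoter window shown above, was at 3.69, 3.79, 2.71 and 3.05 CPM at 24M and at 9.1, 9.19, 8.88 and 8.74 CPM at 3M. Gulp1-206, a coding transcript that starts well inside the gene at base 44689144, was at 1.43, 0.777, 0.388 and 0.705 CPM at 24M and at 6.58, 4.87, 5.87 and 5.03 CPM at 3M. Gulp1-203 thus kept 36.9% of its 3M level and Gulp1-206 kept 14.8%. The share of Gulp1-203 was 58.4% ± 5.69 at 24M and 40.5% ± 4.06 at 3M, and that of Gulp1-206 was 13.8% ± 4.81 and 25% ± 1.91. Both shares were separate between the ages, as 3.3% of transcripts tested were on the higher and 2.67% on the lower side. Yet the natural-log share differences of 0.37 and -0.54 had unadjusted p of 0.0903 and 0.0635 and adjusted p of 1.0 in edgeR. Gulp1-203 carried 34.0% of the decline in CPM, Gulp1-206 28.6%, Gulp1-204 19.5% and Gulp1-201 12.6%. Gulp1-204 has only 341 bases, 44 of them coding, and per kilobase the order differed. It was at 2.39 CPM per kilobase at 24M and 11.9 at 3M, against 2.37 and 6.42 for Gulp1-203. Gulp1-206 was at 0.295 and 2.0 CPM per kilobase, and Gulp1-201 at 0.147 and 0.815.

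The 3 Nrep transcripts share 1 coding part of 204 bases and differ before and after it. Nrep-203, the longest at 3311 bases, was at 3.61, 5.34, 3.88 and 2.89 CPM at 24M and at 7.73, 6.32, 11.5 and 8.36 CPM at 3M. Nrep-202, of 2185 bases, was at 0.912, 0.389, 0.465 and 1.38 CPM at 24M and at 7.12, 5.73, 3.9 and 4.86 CPM at 3M. Each was lower in every 24M library, and they carried 38.4% and 38.9% of the decline in CPM, with 22.5% for Nrep-201. Per kilobase the order differed, since Nrep-201 has only 659 bases. It was at 1.08 CPM per kilobase at 24M and 5.13 at 3M, against 1.19 and 2.56 for Nrep-203 and 0.359 and 2.47 for Nrep-202. Nrep-203 made up 71.8% ± 12.2 of the gene at 24M and 49.4% ± 12.3 at 3M, and the shares overlapped. The share of Nrep-202 was 15.1% ± 9.32 at 24M and 31.4% ± 6.8 at 3M. Its share difference was -0.75 in natural log, with an unadjusted p of 0.0141 and an adjusted p of 1.0 in edgeR.

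Podxl2 was spread over more transcripts than the others, and its 2 shown start sites did not give the same picture. Podxl2-210, from the upstream start and with the longest coding part at 1809 bases, was at 0, 0.923, 0.62 and 0 CPM at 24M and at 4.5, 2.98, 1.37 and 5.37 CPM at 3M. Podxl2-201, from the downstream start and with a coding part of 1617 bases, was at 1.11, 3.35, 2.91 and 3.09 CPM at 24M and at 5.36, 2.68, 6.15 and 3.37 CPM at 3M. Podxl2-210 did not overlap between the ages and carried 29.4% of the decline, while Podxl2-201 overlapped and carried 16.5%. Only 55 bases of Podxl2-210 and 41 of Podxl2-201 lie in no other Podxl2 transcript, so their split rests on few bases of their own. In each, 522 bases lie in exons of overlapping genes. Between libraries of 1 age the split varied widely. At 12M, Podxl2-210 was at 0, 1.13, 0 and 5.22 CPM, and in 12M replicate 4, which had the 5.22 CPM, Podxl2-201 was at 0. The share of Podxl2-210 was 4.78% ± 5.76 at 24M and 20.8% ± 10.1 at 3M, with an unadjusted p of 0.0259 and an adjusted p of 1.0 in edgeR. Podxl2-212, a single-exon retained-intron transcript, was at 1.83 ± 0.666 CPM at 24M and 3.3 ± 0.985 CPM at 3M. Gm15612, an antisense gene that overlaps Podxl2 over 4421 bases, was at 5.82 ± 1.75 CPM at 24M and 9.32 ± 1.22 CPM at 3M, and its part in the Podxl2 values was not tested.

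**Figure D4:**
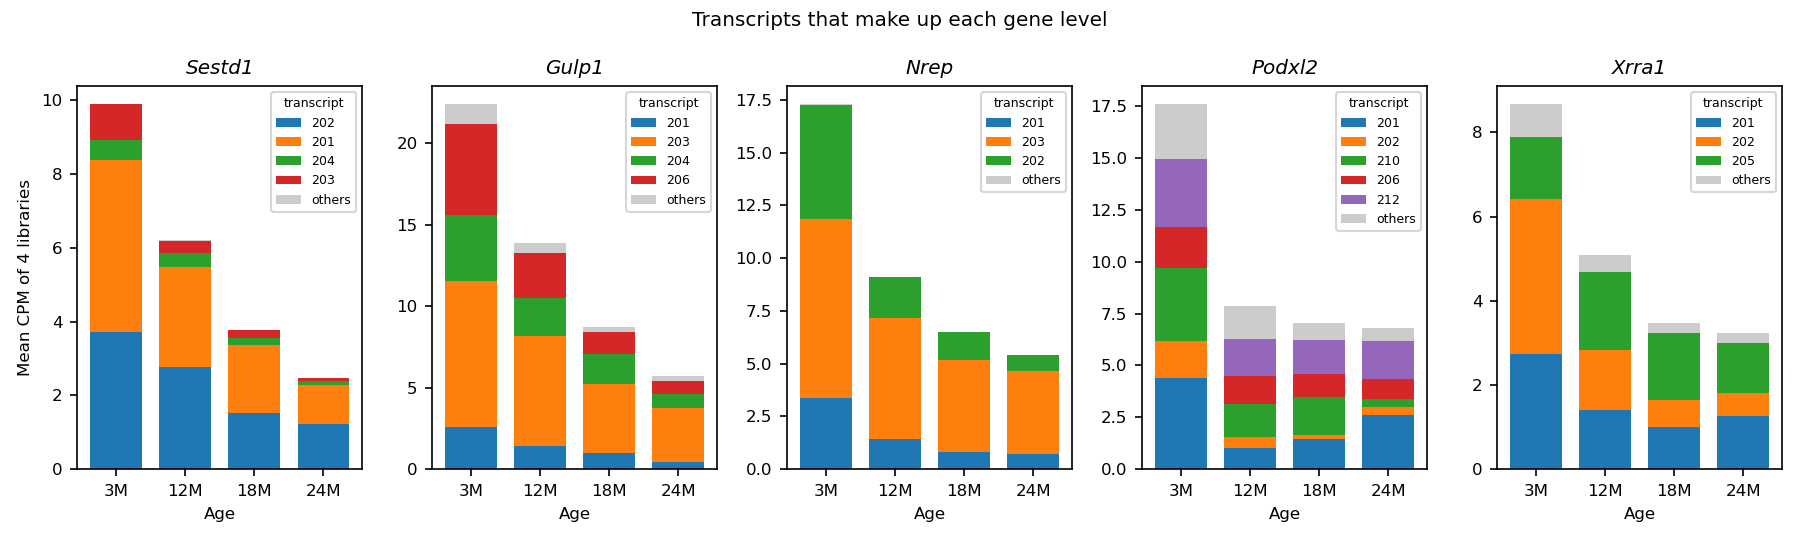
Mean CPM of 4 libraries by age, stacked by transcript; grey holds transcripts with under 5% of their gene's counts. Transcript 202 of Xrra1 shrinks to 0.544 CPM at 24M, against 3.69 CPM at 3M, while transcript 205 of Xrra1 is at 1.2 CPM at 24M and 1.48 CPM at 3M.

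Of the 10 nearest tested neighbours of these genes on their chromosomes, 1 passed in edgeR at 24M against 3M, in the lower direction, as did 1.6% of all genes tested. Ccdc141, 9704 bases from Sestd1, had a log2 difference of 0.20 (SE 0.24) at 24M against 3M. Abtb1, 574 bases from Podxl2, had -0.04 (SE 0.16), and Mcm2 on its other side had -0.11 (SE 0.15). Stard4 beside Nrep had -0.46 (SE 0.14), with an adjusted p of 0.0928 in edgeR. The neighbour that passed was Rnf169, a ubiquitin ligase gene 2432 bases from Xrra1 on the opposite strand. It was at 75.2 ± 3.81 CPM at 24M and 88.7 ± 5.59 CPM at 3M, a log2 difference of -0.24 (SE 0.06) with an adjusted p of 0.0458 in edgeR. That call was lost in 16 of 25 alternatives, 13 of them fits that left out 1 of the 16 libraries. Its adjusted p over all alternatives ran between 0.00438 and 0.244.

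The genes whose log2 CPM ran most like each of the 5 over the 16 libraries were ranked among protein-coding genes other than the 5. Sestd1 and Gulp1 themselves ran more alike (Pearson r 0.978) than either did with any gene in that ranking. Prdm1, a transcriptional repressor that favours photoreceptor over bipolar fate in the developing retina, was first for Sestd1 (Pearson r 0.961) and for Gulp1 (0.952). It averaged 25.4, 12.4, 9.12 and 6.23 CPM at 3M, 12M, 18M and 24M. Tbc1d9, with 16.2, 8.35, 4.52 and 3.04 CPM over the same ages, was second for both (0.934 and 0.935). For Nrep the likest were Mtus1 (0.977), Serinc5 (0.970) and Idh3a (0.965), and for Xrra1 they were Serinc5 (0.954), Mylk (0.951) and Kirrel (0.946). For Podxl2 they were Rab11fip5 (0.956), Dusp5 (0.955) and Atp9a (0.942). These r are descriptions over libraries that share their ages, with no test. After the mean of each age was taken out, r was 0.686 for Prdm1 with Sestd1 and 0.432 with Gulp1, and -0.156 and -0.423 for Tbc1d9. It was 0.794 for Rasa2 with Sestd1 and -0.287 for Serinc5 with Gulp1. Sestd1 with Gulp1 had 0.659 by this measure, below Prdm1 and Rasa2 with Sestd1, so their order as the likest pair did not hold within ages. For Podxl2 this r was 0.933 with Rab11fip5, 0.851 with Dusp5 and 0.868 with Atp9a, so their likeness includes differences between libraries of 1 age. Over the 3 likest genes of all 5, it ran between -0.423 and 0.933.

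Lists of known partners and pathway members of the 5 genes held few calls, and no list had more than 1 gene lower in edgeR with all 16 libraries. Of 26 other engulfment genes, 15 were tested, and 3 rose and 0 fell at 24M against 3M in edgeR at an adjusted p under 0.05, a share to be set against 2.65% of all tested genes higher and 1.6% lower. The median log2 difference was 0.04, against 0.01 over all genes. The 3 were the lipid exporter gene Abca1, the integrin subunit gene Itgav and the bridging ligand gene Pros1. Abca1 was at 186 ± 35.7 CPM at 24M and 77.0 ± 2.73 CPM at 3M (log2 1.28, SE 0.15, adjusted p 5.73e-05 in edgeR). Itgav was at 24.0 ± 1.86 and 12.7 ± 2.18 CPM in those ages, and Pros1 at 7.92 ± 1.83 and 3.91 ± 0.723 CPM. In the other direction, 2 genes had an unadjusted p under 0.05 in edgeR. The count called lower was 1 in DESeq2 and between 0 and 3 over all alternatives. It was 3 where only the 13 libraries of the authors' normalized table were fitted. The 3 genes that rose were called in all 25 alternatives. Tyro3, a receptor for Pros1, was at 11.5 ± 2.8 CPM at 24M and 19.0 ± 3.88 CPM at 3M, with a log2 difference of -0.72 (SE 0.20) and an adjusted p of 0.057 in edgeR. Lrp1, a receptor that Gulp1 binds, had 0.57 (SE 0.41).

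The remaining lists held few or no calls in edgeR. Over all genes tested, 7.31% were higher and 6.7% lower at an unadjusted p under 0.05, the background for the unadjusted counts of each list. Of 12 tested TGF-beta ligands, receptors and Smads of 19 listed, 0 passed, with 1 lower and 0 higher at an unadjusted p under 0.05 and 0 in DESeq2. Of 7 tested planar polarity genes of 18 listed, 0 passed, with 1 lower without adjustment and 1 lower in DESeq2. Vangl2 itself had a log2 difference of -0.22 (SE 0.11), and Dact1 was under the minimum level. Of the TRPC channels, Trpc1 had a log2 difference of 0.43 (SE 0.15) and missed the adjusted threshold in edgeR and in DESeq2. Of 5 tested genes of the CD34 family and its partners of 11 listed, 0 passed in edgeR or DESeq2, with 1 higher without adjustment. Podxl, which encodes podocalyxin of the same family, was at 191 ± 17.1 CPM at 24M and 212 ± 22.3 CPM at 3M, a log2 difference of -0.15 (SE 0.10). Of 17 tested genes of double-strand break signalling and joining of 18 listed, 1 was called lower in edgeR, against 1.6% of all genes tested. It was Rnf169, the neighbour of Xrra1 given above, whose call was lost in 16 of 25 alternatives.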

How the data were processed

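Per the labels' protocols, libraries were made from 4 ng of RNA of rods sorted to a purity above 98%, with a stranded total RNA kit, 13 PCR cycles and paired reads of 125 bases. The authors deposited an estimated count per transcript in 16 libraries, which need not be whole. The authors' gene table holds a signal per gene in CPM, and another holds normalized CPM signal for 13 libraries. The authors' deposited comparison table holds log2 differences from 3M, an F statistic as a score, and a p-value. Tools listed in the submitters' processing notes are limma 3.32.2, edgeR 3.13.9 and kallisto 0.42.5. How transcripts were summed to genes, and with which strand setting, is not given there. The authors' CPM of the 5 genes were 0.725 to 1.44 times those computed here in single libraries.

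Here, 111896 of 113468 transcripts were matched by identifier to GENCODE M21 (GRCm38), and the unmatched held 0.73% to 1.08% of counts. Sums per gene (45038 genes) were then rounded. Genes were fitted with edgeR 4.0.16 in R 4.3.3 (TMM factors, quasi-likelihood test, 1 mean per age over 16 libraries), with Benjamini-Hochberg adjustment over 12177 genes. CPM of genes and transcripts use the same factors, so transcripts sum to their gene, and errors are SDs over 4 libraries. Transcript shares were tested with diffSpliceDGE over transcripts with at least 1 CPM in 4 libraries. Its share difference is in natural log and relative to the fitted change of the whole gene, while limma's is in log2. Only the main edgeR fits, of gene levels and of transcript shares, were tested on simulated data, and the outcome is not given here. No pair of libraries agreed within sampling noise (lowest chi-square per degree of freedom 8.99). The members, the pathway lists and the marker lists were chosen with earlier results of these data known. Named were the 5 genes, their transcripts with at least 5% of the gene's counts, the 3 likest protein-coding genes of each, overlapping genes, called list genes and list genes known as partners; the nearest tested neighbours, Tyro3 and Podxl were chosen after their values were seen. Promoter windows are shown for 4 of the genes, matched by symbol. A result of 1 pathway list is not reported here. Alternatives were DESeq2 1.42.0, DESeq2 size factors, limma 3.58.1 voom with diffSplice, other filters, the authors' CPM with pseudocounts of 0.5 and 2, a replicate block, a length-slope covariate, the 13 libraries, and each library left out in turn.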

Additional observations from a re-analysis of the deposited data

Results flagged for a closer look

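In 5 of 96 groups of 4 libraries, 1 library stood apart from the other 3 by Dixon's criterion, which chance meets in about 1 in 20 groups. Podxl2 was at 13.4 CPM in 12M replicate 4, against 5.81 to 6.35 CPM in the other 12M libraries. Podxl2-202 was at 0.929 CPM in 12M replicate 1, against 0.369 to 0.448 CPM. Xrra1-201 was at 2.64 CPM in 12M replicate 4, against 0.886 to 1.13 CPM, and at 2.19 CPM in 18M replicate 4, against 0.495 to 0.759 CPM. Xrra1-202 was at 0.671 CPM in 24M replicate 4, against 0.486 to 0.516 CPM.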

How the results depend on the processing

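The log2 difference at 24M against 3M of each of the 5 genes kept its sign in all 25 alternatives. It lay between -2.13 and -1.61 for Sestd1, -2.07 and -1.78 for Gulp1, -1.75 and -1.38 for Nrep, -1.47 and -1.01 for Podxl2, and -1.5 and -1.13 for Xrra1. The values nearest 0 came from the authors' CPM with a pseudocount of 2, which was larger than the spread between libraries for Sestd1 (-1.61), Nrep (-1.38) and Xrra1 (-1.13). Podxl2 at 18M against 12M changed sign, to 0.22 without 12M replicate 4 and 0.31 in the 13 libraries. In those 13, the step at 24M against 18M was -0.33 for Sestd1 and -0.43 for Gulp1.

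Counts over all genes moved more. Against 323 genes higher at 24M, the length slope as a covariate gave 751 and the 13 libraries 1470, and leaving out 1 library gave 242 to 418. Against 195 lower, DESeq2 gave 338, the length slope 643 and the 13 libraries 1373, and leaving out 1 library gave 122 (without 3M replicate 2) to 304 (without 12M replicate 4), with 128 without 24M replicate 4. Against 35 transcript shares higher, a minimum of 10% of the gene gave 4 and one of 5 CPM gave 4, and leaving out 1 library gave 24 to 38. Against 39 shares lower, limma's diffSplice gave 74, the 2 stricter filters 3 and 5, the length slope 69 and the 13 libraries 66, and leaving out 1 library gave 18 (without 3M replicate 2) to 50. The cause was not tested, except that the stricter filters test fewer transcripts. No named transcript passed in any alternative. The share differences of Podxl2-206 and Xrra1-201 changed sign with limma's diffSplice, to -0.12 and -0.24 in log2. Rnf169 lost its call in 16 of 25 alternatives: with a minimum of 1 CPM, with no filter, with the replicate block and in 13 of the 16 fits that left out 1 library.

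Of 24 same-numbered pairs of libraries, 11 had a correlation of their deviations over 0.1 (range -0.744 to 0.726). Pairs with different numbers were not computed, so these values cannot decide whether replicate numbers pair the samples. With the replicate block, 285 genes were higher and 159 lower, and 26 transcript shares were higher and 33 lower. The levels of single transcripts at 24M rest on few counts, and estimates split among transcripts that share most of their bases carry an error that the SDs do not hold in full.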
